A study of Mus musculus with 23 samples.

Results

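The genes described here are 10 genes of enamel formation among the 54347 genes of the table. They were chosen by name from their known roles, with earlier results of these data known. The list holds the matrix proteins Amelx, Ambn and Enam, the proteases Mmp20 and Klk4, and the maturation stage proteins Odam and Amtn. It also holds the cell-associated genes Fam20a, Fam83h and Wdr72. All 10 were measured by bulk Smart-seq2 RNA sequencing, a full-length protocol for small amounts of RNA. The cells were sorted by flow cytometry from the dissociated labial cervical loop of the lower incisor of mice at postnatal day 2. The 23 libraries fell into 4 groups: Sox2-Negative and Sox2-Positive cells of batch A (6 libraries each), and Sox2-Negative (4 libraries) and Sox2-Positive cells (7 libraries) of batch B. The batches were separate experimental days with different mice. The labels used here name no strain, sex, reporter or further allele, and do not tie a library to an animal, so p-values measure the spread between these libraries, which may be technical.

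The labial cervical loop is the growing end of the continuously renewing mouse incisor and holds dental epithelial stem cells, for which the transcription factor Sox2 is a known marker. Their descendants become ameloblasts, which first secrete a matrix of amelogenin (Amelx), ameloblastin (Ambn) and enamelin (Enam) that the metalloprotease Mmp20 cleaves. In the later maturation stage the serine protease Klk4 degrades that matrix, and Odam and Amtn are deposited at the boundary between cell and enamel. Fam20a, a pseudokinase, assists the kinase that phosphorylates secreted enamel proteins. Fam83h associates with keratin filaments and Wdr72 takes part in vesicle trafficking of maturation stage ameloblasts. Loss or alteration of most of these genes is known to cause inherited enamel defects.

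Total counts ranged from 2305778 to 9541443 per library, with a median of 4831091. Levels are given as CPM, the counts scaled by TMM to a common total for every library, and 3 counts in a library, the floor used here, corresponded to 0.357 to 1.30 CPM. Mean Sox2 in batch A was 7.27 CPM for Sox2-Positive and 0.0436 CPM for Sox2-Negative cells, and in batch B it was 16.4 and 0.297 CPM. Summed over 7 epithelial markers, Sox2-Positive libraries held 3159.8 to 3578 CPM (batch A) and 3037 to 4738 CPM (batch B), and Sox2-Negative libraries 144 to 229 CPM and 340.2 to 409.5 CPM. Mesenchymal markers (7 genes) summed to 10013 to 12910.3 CPM over the Sox2-Negative libraries, above the epithelial sum in every one of them. Batch B libraries numbered 1 and 2 had stood apart in an earlier examination of these data. In Sox2-Negative cells they held 15894 to 16517 genes with at least 10 counts, against 15165 to 15175 in the others of that group. In Sox2-Positive cells they held 14301 to 14697 against 12237 to 14469. Such gene numbers depend on total counts, which differed too. Numbers 1 and 2 had the highest totals of the Sox2-Negative group (9541443 and 7704481, against 6609417 and 6397409). In Sox2-Positive cells their totals were 5978076 and 7111502, against 2305778 to 6464634 in the others. Total counts were not corrected for, so these gene numbers alone do not set the libraries apart. Results that changed without the batch B libraries numbered 1 and 2 are given below with both values. In bulk libraries, fewer cells of a type and less RNA per cell cannot be told apart.

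The members lie on 6 chromosomes of GRCm38. Odam, Amtn, Ambn and Enam, all of the secretory calcium-binding phosphoprotein family, sit on the plus strand of chromosome 5 within 621 kb, from position 87885029 to 88506049. The same interval holds 10 other annotated protein-coding genes, among them casein and salivary protein genes. Of those, 6 had no count in any library, and 9 never exceeded 3 counts. The exception, Csn3, a casein gene, reached 55 counts in 1 library. Ambn and Enam were therefore the only genes of the interval other than Odam and Csn3 to exceed 3 counts in any library. Amelx lies on chromosome X (169176114 to 169187200, minus strand) inside Arhgap6, which is on the opposite strand, and no exon of one overlaps an exon of the other. Klk4 is on chromosome 7, Mmp20 and Wdr72 on chromosome 9, Fam20a on chromosome 11 and Fam83h on chromosome 15.

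RefSeq promoter windows on GRCm38.p6, from 250 bases before to 50 bases after each start, were found for 8 of the 10 members, Fam83h and Wdr72 being the others. The last 120 bases before the start are shown for the 5 members of the phosphoprotein family and for Mmp20, because 4 of these 6 genes (Amelx, Ambn, Enam and Mmp20) carried the differences described below. Each runs 5′ to 3′ on the strand of its gene, with matches to TGATTGG and TATAAA in capitals.
Amelx, chrX:169187210-169187329, minus strand: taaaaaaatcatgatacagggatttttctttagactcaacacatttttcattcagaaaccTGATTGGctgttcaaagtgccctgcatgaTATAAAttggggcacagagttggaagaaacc
Ambn, chr5:88455871-88455990, plus strand: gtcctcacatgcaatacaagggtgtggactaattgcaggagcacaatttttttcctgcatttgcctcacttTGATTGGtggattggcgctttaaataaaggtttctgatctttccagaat
Enam, chr5:88487855-88487974, plus strand: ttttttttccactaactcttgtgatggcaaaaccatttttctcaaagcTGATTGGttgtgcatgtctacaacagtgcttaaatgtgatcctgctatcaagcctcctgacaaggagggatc
Odam, chr5:87884890-87885009, plus strand: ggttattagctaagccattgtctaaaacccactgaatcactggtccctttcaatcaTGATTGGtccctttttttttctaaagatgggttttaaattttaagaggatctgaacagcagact
Amtn, chr5:88375988-88376107, plus strand: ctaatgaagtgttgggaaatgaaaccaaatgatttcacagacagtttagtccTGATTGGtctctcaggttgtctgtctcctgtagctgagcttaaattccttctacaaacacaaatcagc
Mmp20, chr9:7628111-7628230, plus strand: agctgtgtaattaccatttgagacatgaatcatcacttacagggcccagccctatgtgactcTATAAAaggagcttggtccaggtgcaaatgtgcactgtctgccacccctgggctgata

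TGATTGG, the inverse complement of the CCAAT box letters with 2 flanking bases, was present on the gene strand of all 5 phosphoprotein genes and in none of Mmp20, Klk4 and Fam20a. Its first base lay 60 bases before the start in Amelx, 49 in Ambn, 72 in Enam, 64 in Odam and 68 in Amtn. Among 32851 RefSeq promoter windows of the same length, 7.82% held it on either strand, and 1.74% held it on the gene strand from 100 to 40 bases before the start. The motif and that narrower window were chosen after these sequences had been seen. Of the dentin and bone genes of the same family and their SPARC relatives, 4 of the 5 with a window held it in at least 1 window (Dmp1, Ibsp, Mepe and Spp1), and it was in 0 of the 4 windows found for the chromosome 5 neighbours. Dmp1 and Spp1 each had a second window without it. The matches in Dmp1 (103 bases before the start) and Mepe (23 bases) fell outside the narrower window, and those in Ibsp (56) and Spp1 (48) within it. TATAAA, the core letters of a TATA box, was searched on both strands and was found 31 bases before the start of Amelx, 137 before that of Enam and 58 before that of Mmp20; 13.6% of all windows held it. Of the other letters searched on both strands, TGTGGT was in Odam (16.8% of all windows), TAATTA in Mmp20 (5.29%) and TAATCC in 0 of 8 members (7.06%). A match describes letters only. The 5 genes that share TGATTGG did not share a pattern of expression: Amelx, Ambn and Enam were abundant in the same groups, Odam was low and highest in another group, and Amtn was at 0.

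**Figure D1:**
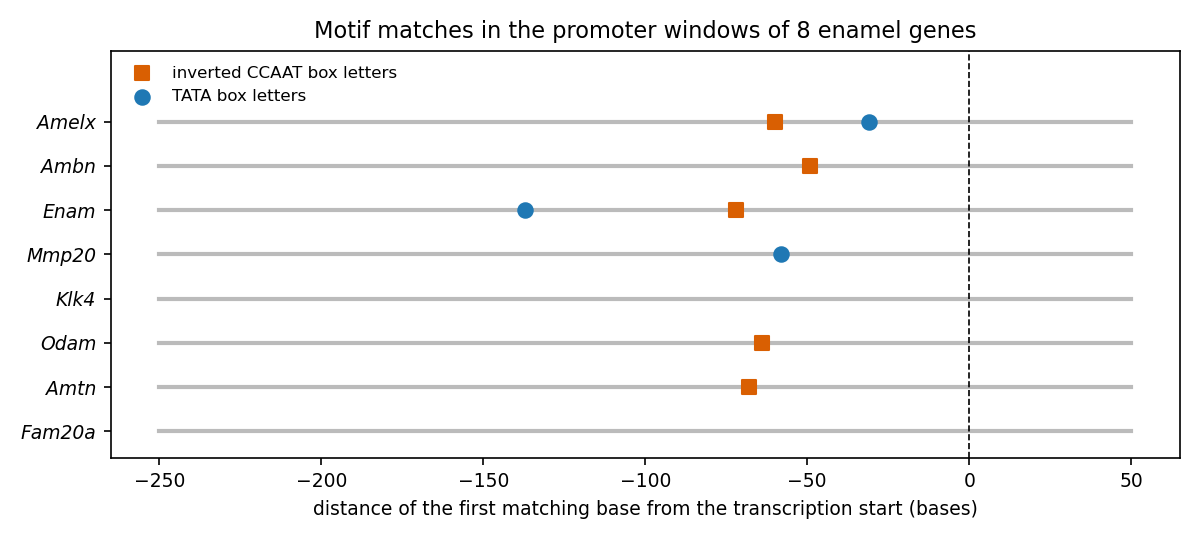
Positions of the TGATTGG letters (squares) and the TATAAA letters (circles) in the RefSeq promoter windows of 8 enamel genes, as bases from the transcription start (dashed line); grey lines are the windows searched, 250 bases before to 50 after the start. The squares of the 5 phosphoprotein genes lie between 72 and 49 bases before the start.

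Amelx and Ambn were present in every group, whereas in batch B Sox2-Positive cells Enam had no count and Mmp20 had 2 counts in all. All 3 matrix genes were lower in Sox2-Positive than in Sox2-Negative cells in both batches. The size of that difference depended on the batch. In batch A the Sox2-Positive cells still held 270.3 CPM of Amelx, while in batch B they held 6.76 CPM. Of the genes of the maturation stage, Amtn had no count in any of the 23 libraries and Klk4 exceeded 3 counts in 2 of them, while Odam exceeded 3 counts in all 7 batch B Sox2-Positive libraries, with 165 counts over them.

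Amelx, the main enamel matrix protein, had the highest mean level per kilobase of exon among the members in each group (656, 271, 448 and 6.76 CPM per kilobase). Its lowest, median and highest CPM were 536, 664 and 729 in batch A Sox2-Negative libraries and 239, 269 and 295 in batch A Sox2-Positive libraries. In batch B the 4 Sox2-Negative libraries held 409.7, 434, 468 and 479.7 CPM, and the 7 Sox2-Positive libraries 4.14, 6.55 and 8.48 CPM (lowest, median, highest; 13 to 60 counts). The 4 groups did not overlap. Group means were 655 ± 66.9 (SD, n = 6), 270.3 ± 20.7 (n = 6), 448 ± 31.8 (n = 4) and 6.76 ± 1.63 CPM (n = 7) in the same order.

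**Figure D2:**
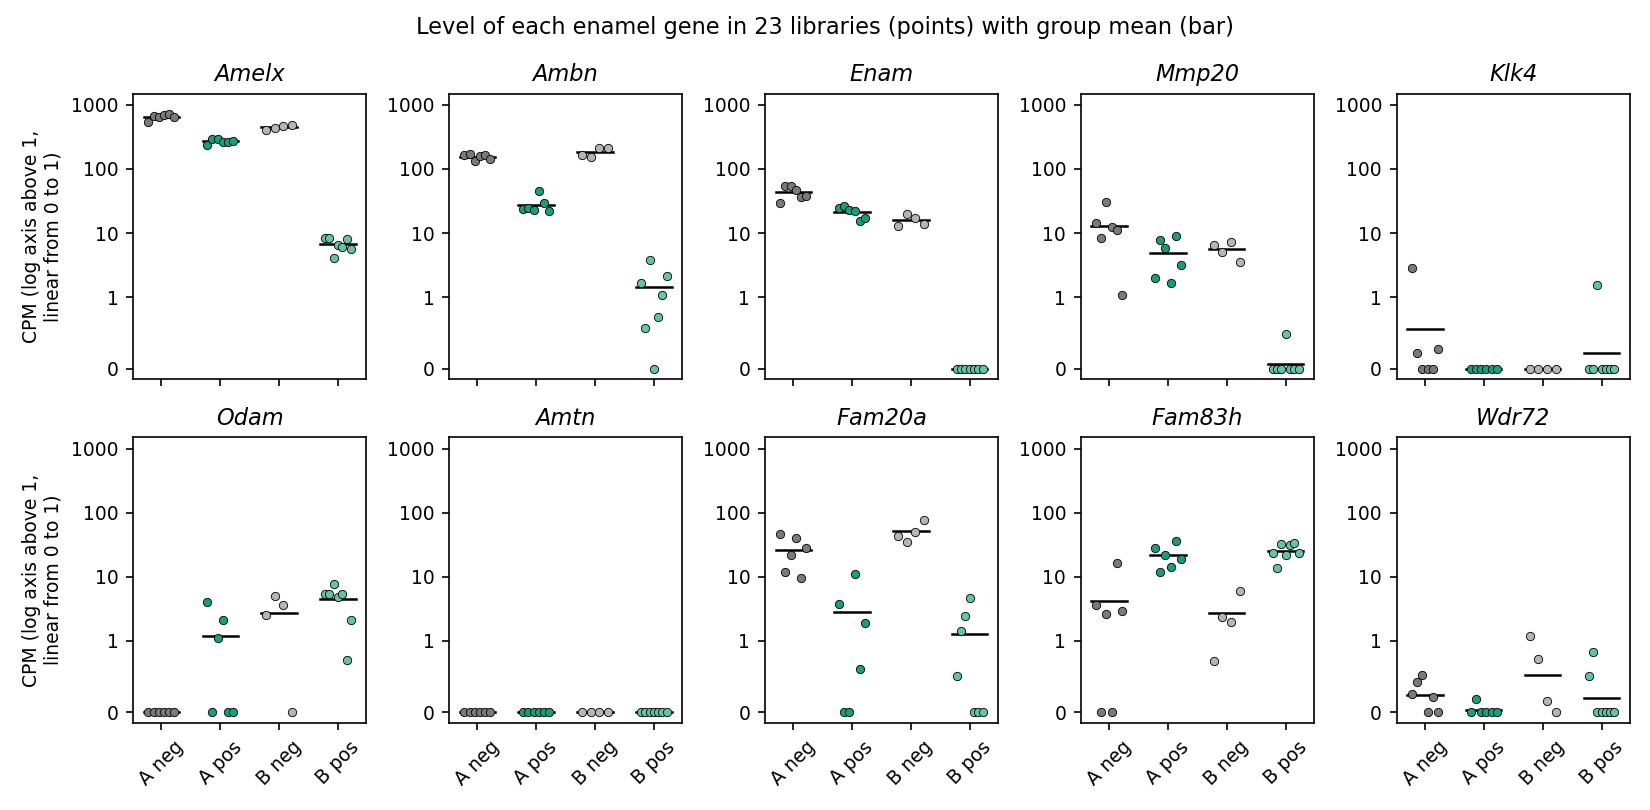
CPM of each of the 10 enamel genes in the 23 libraries (points) with the group mean (bar), on an axis that is logarithmic above 1 and linear from 0 to 1; neg and pos are Sox2-Negative and Sox2-Positive cells of batches A and B. Amelx, Ambn and Enam are lowest in batch B Sox2-Positive libraries, where Enam is at 0 in 7 of 7, and Amtn is at 0 throughout.

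Amelx was thus 2.42 times as high in Sox2-Negative as in Sox2-Positive cells in batch A (log2 fold change -1.27 ± 0.09 SE, adjusted p = 1.78e-08, edgeR quasi-likelihood test with Benjamini-Hochberg adjustment over all genes tested, as throughout). In batch B the ratio was 66.3 (log2 fold change -5.95 ± 0.17 SE, with an edgeR adjusted p of 1.19e-13). The 2 differences differed from each other by -4.75 ± 0.18 on the log2 scale (population by batch interaction, edgeR adjusted p = 3.69e-16). Between batches, Amelx was 1.46 times as high in batch A in Sox2-Negative cells (edgeR adjusted p = 0.00596), and in Sox2-Positive cells the log2 fold change of batch B over batch A was -5.30 ± 0.14 SE (edgeR adjusted p = 1.75e-20). Without the batch B libraries numbered 1 and 2, the difference within Sox2-Negative cells was -0.47 on the log2 scale and no longer passed (adjusted p = 0.0917).

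Ambn, which links ameloblasts to the forming enamel, was also lower in Sox2-Positive than in Sox2-Negative cells of each batch. Batch A Sox2-Negative libraries held 131, 162 and 168 CPM (lowest, median, highest) and batch A Sox2-Positive libraries 21.8, 24.1 and 44.8 CPM. The 4 batch B Sox2-Negative libraries held 165, 153, 214 and 215 CPM, and batch B Sox2-Positive libraries 0, 1.09 and 3.83 CPM, with 52 counts over the 7. The populations overlapped in neither batch, whereas the Sox2-Negative groups of the batches overlapped each other. The ratio of Sox2-Negative to Sox2-Positive means was 5.56 in batch A (log2 fold change -2.47 ± 0.19 SE, with an edgeR adjusted p of 4.93e-08) and 129.9 in batch B (-6.88 ± 0.39 SE, adjusted p = 4.38e-10). The interaction was -4.47 ± 0.45 on the log2 scale (edgeR adjusted p = 1.90e-07). Without Sox2-Positive replicate 3, the highest of its group, the batch B value was -7.48 and the interaction -5.07. Sox2-Negative cells of the 2 batches differed by 0.27 on the log2 scale, which did not pass (edgeR adjusted p = 0.623), and Sox2-Positive cells by -4.20 ± 0.34 (adjusted p = 7.53e-10).

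Enam, the lowest of the 3 matrix genes per kilobase, was the one of them with no count in batch B Sox2-Positive cells. It held 29.5, 42.6 and 54.8 CPM (lowest, median, highest) in batch A Sox2-Negative, 15.3, 22.4 and 26.7 CPM in batch A Sox2-Positive and 12.7, 20.0, 17.3 and 13.9 CPM in the batch B Sox2-Negative libraries. All 7 batch B Sox2-Positive libraries had 0 counts. In batch A the populations did not overlap, with a ratio of 2.03 (log2 fold change -1.01 ± 0.26 SE, with an edgeR adjusted p of 0.00451). In batch B Enam was at least 22.2-fold higher in Sox2-Negative cells, taking the floor of 3 counts in each Sox2-Positive library (edgeR adjusted p = 1.61e-06). In Sox2-Positive cells it was at least 29.8-fold higher in batch A than in batch B on the same floor (edgeR adjusted p = 1.04e-11), and the interaction passed (adjusted p = 2.49e-08). Within Sox2-Negative cells Enam was 2.73 times as high in batch A (log2 fold change -1.45 ± 0.32 SE, with an edgeR adjusted p of 0.00454), which without the batch B libraries numbered 1 and 2 was -1.47 and did not pass (adjusted p = 0.0616).

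Mmp20, the protease of the secretory stage, was low and variable. It held 1.07, 11.7 and 30.1 CPM (lowest, median, highest) in batch A Sox2-Negative and 1.66, 4.51 and 9.06 CPM in batch A Sox2-Positive libraries, which overlapped. The batch B Sox2-Negative libraries held 6.54, 5.10, 7.34 and 3.57 CPM, and of the 7 batch B Sox2-Positive libraries only replicate 4 had counts, 2 in all. In batch A the difference did not pass (log2 fold change -1.37 ± 0.66 SE, with an edgeR adjusted p of 0.105), but it did without Sox2-Negative replicate 6, the lowest of its group (-1.62, adjusted p = 0.0318). In batch B the groups did not overlap and the summed rate was 98.0 times as high in Sox2-Negative cells, with an exact 95% counting interval of 26.7 to 817 (edgeR adjusted p = 1.92e-05). In Sox2-Positive cells it was 86.0 times as high in batch A as in batch B, with an interval of 23.4 to 717 (edgeR adjusted p = 2.84e-05). The interaction was -4.66 ± 1.10 on the log2 scale (edgeR adjusted p = 0.00796). It did not pass without the batch B libraries numbered 1 and 2 (-4.10, adjusted p = 0.105), and it was -6.51 without Sox2-Positive replicate 4.

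Klk4, the protease of the maturation stage, had 11 counts in batch A Sox2-Negative replicate 1 and 10 counts in batch B Sox2-Positive replicate 3. Over the other libraries of those 2 groups it had 2 counts in all, both in batch A, and it had 0 counts in the other 2 groups. It did not pass the filter on low counts and was not tested.

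Odam, expressed late in amelogenesis and in the epithelium that attaches to the tooth, ranked behind only Amelx (6.76 CPM per kilobase of exon) and Fam83h (5.55) among the members in batch B Sox2-Positive cells, at 3.29 CPM per kilobase. It had 0 counts in all 6 batch A Sox2-Negative libraries and 0, 0.564 and 3.99 CPM (lowest, median, highest) in batch A Sox2-Positive libraries. In batch B the Sox2-Negative libraries held 2.50, 4.95, 3.59 and 0 CPM and the Sox2-Positive libraries 0.726, 5.37 and 7.82 CPM. The populations overlapped in both batches. Over both batches Odam was higher in Sox2-Positive cells (log2 fold change 2.08 ± 0.89 SE, with an edgeR adjusted p of 0.0469), a call that was lost without any 1 of 11 libraries: the 6 batch A Sox2-Negative libraries, batch A Sox2-Positive replicates 1, 3 and 4, batch B Sox2-Negative replicate 4 and batch B Sox2-Positive replicate 3 (adjusted p 0.0510 to 0.0726). limma-voom did not call it either (adjusted p = 0.141). In batch B alone the difference was 0.79 ± 0.76 and did not pass (edgeR adjusted p = 0.391), and in batch A Odam did not pass the filter. Within Sox2-Negative cells it was at least 3.74-fold higher in batch B on the floor of 3 counts (edgeR adjusted p = 0.00892), which did not pass without the batch B libraries numbered 1 and 2 (adjusted p = 0.0917) or by limma-voom (adjusted p = 0.0940). Within Sox2-Positive cells its batch difference was 1.91 (edgeR adjusted p = 0.316).

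Amtn, a protein of the basal lamina of maturation ameloblasts, was at 0 in all 23 libraries, which allows at most 0.357 to 1.30 CPM per library. Wdr72 had at most 10 counts in a library, and was not tested.

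Fam20a fell in Sox2-Positive cells of both batches, as the matrix genes did. Batch A Sox2-Negative libraries held 9.45, 24.8 and 46.0 CPM (lowest, median, highest) and batch A Sox2-Positive libraries 0, 1.26 and 10.9 CPM. The batch B Sox2-Negative libraries held 43.0, 35.3, 50.7 and 76.6 CPM and batch B Sox2-Positive libraries 0, 0.505 and 4.61 CPM. The populations overlapped in batch A, through Sox2-Positive replicate 4 at 10.9 CPM, and not in batch B. The ratio of Sox2-Negative to Sox2-Positive means was 9.12 in batch A (log2 fold change -3.20 ± 0.93 SE, with an edgeR adjusted p of 0.0112; -4.35 without that replicate) and 40.1 in batch B (-5.14 ± 0.63 SE, adjusted p = 4.46e-06; -5.75 without Sox2-Positive replicate 4). The interaction did not pass for Fam20a (-2.01, edgeR adjusted p = 0.371), nor did the difference between batches in Sox2-Negative (0.98, adjusted p = 0.507) or Sox2-Positive cells (-1.03, adjusted p = 0.552).

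Fam83h was the one member called higher in Sox2-Positive cells in each batch taken alone. It held 0, 2.80 and 16.4 CPM (lowest, median, highest) in batch A Sox2-Negative and 11.8, 20.4 and 36.8 CPM in batch A Sox2-Positive libraries. The Sox2-Positive libraries of batch B held 13.8, 23.3 and 33.2 CPM. The 4 batch B Sox2-Negative libraries held 0.713, 2.40, 1.96 and 5.95 CPM. Sox2-Negative replicate 5, at 16.4 CPM, made the populations of batch A overlap, and those of batch B did not. The Sox2-Positive mean was 5.15 times the Sox2-Negative mean in batch A (log2 fold change 2.35 ± 0.87 SE, with an edgeR adjusted p of 0.0390) and 9.32 times in batch B (3.31 ± 0.47 SE, adjusted p = 2.26e-05). The batch A call was lost without any 1 of 7 libraries, Sox2-Negative replicates 1, 3 and 6 and Sox2-Positive replicates 1, 3, 5 and 6 (adjusted p 0.0547 to 0.0823), and its value was 3.57 without Sox2-Negative replicate 5. Without Sox2-Negative replicate 4 the batch B value was 4.01. The interaction did not pass (0.88, edgeR adjusted p = 0.700) and changed direction without Sox2-Negative replicate 5 of batch A (-0.35).

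**Figure D3:**
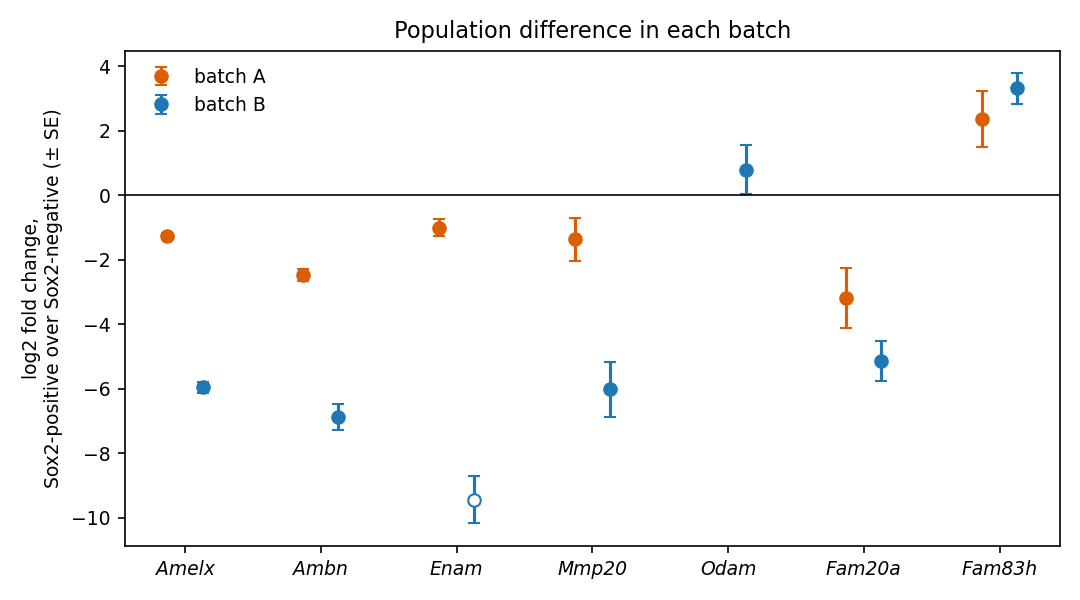
Log2 fold change of Sox2-Positive over Sox2-Negative cells (points) with its standard error (bars) from the edgeR fit of each batch, for the 7 members tested in at least 1 batch; the open circle, Enam in batch B, is a fitted value against a group at 0. Amelx, Ambn, Enam and Mmp20 lie further below 0 in batch B than in batch A, and Fam83h lies above 0 in both.

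Counted over the members, 6 of 10 passed the filter on low counts in batch A, of which 4 were called lower, 1 higher (Fam83h) and 1 not called (Mmp20), with a median log2 fold change of -1.32. Of all 14296 genes tested there, 43.4% were called, 24.2% lower and 19.3% higher, and the median was -0.04. In batch B 7 of 10 were tested, 5 were called lower, 1 higher (Fam83h) and 1 not called (Odam), with a median of -5.95, against 54.7% of 15765 genes called (27.6% lower, 27.1% higher) and a median of 0.01. With both batches in 1 fit, 5 of 7 were lower and 2 higher, with a median of -3.07, where 57.5% of 17190 genes were called (32.5% lower, 24.9% higher) and the median was -0.12. With so large a share of all genes called, these counts alone say little about the members, and members that passed the filter through the group where they are high had to differ. In the interaction 4 of 7 members were called (Amelx, Ambn, Enam and Mmp20), all lower, where 7.04% of 17190 genes were called, 4.22% lower and 2.82% higher. Between batches, 4 of 7 members were called in Sox2-Positive cells, all lower in batch B (10.4% of genes called, 5.54% lower, 4.85% higher), and 3 of 7 in Sox2-Negative cells, 2 lower and 1 higher (11.2% called, 5.35% lower, 5.85% higher), a count of 0 without the batch B libraries numbered 1 and 2. These contrasts share libraries with one another.

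The proportions of the matrix transcripts to one another also differed between groups, in ratios chosen after the levels had been seen. Ambn stood at 23.9 ± 3.59 counts (SD, n = 6) per 100 Amelx counts in Sox2-Negative cells of batch A, 10.4 ± 3.47 in batch A Sox2-Positive (n = 6) and 41.5 ± 4.83 in batch B Sox2-Negative libraries (n = 4). The 3 groups did not overlap: the first 2 differed with an exact two-sided permutation p of 0.00216, and each differed from the third with an exact p of 0.00476, the smallest these group sizes allow (adjusted p 0.00952 for each, over 6 comparisons). Enam stood at 6.64 ± 1.46 per 100 Amelx counts in batch A Sox2-Negative and 7.96 ± 1.74 in batch A Sox2-Positive libraries, which was within the spread (exact permutation p = 0.184). It was lower in batch B Sox2-Negative libraries, at 3.58 ± 0.758 (exact permutation p = 0.00952 against each batch A group, adjusted p = 0.0114). In batch B Sox2-Positive cells 52 Ambn counts stood against 238 Amelx counts, or 21.8 per 100, with a range over libraries of 0 to 92.6. Enam had 0 counts against the same 238. A floor of 3 counts over the summed libraries would be 1.26 per 100, below the lowest library of the other groups (2.90). On the floor of 3 counts in each library, the Amelx counts were too few to place the Enam ratio below those groups. The Enam ratio of batch B Sox2-Positive cells was not tested. Per kilobase of exon, batch A Sox2-Negative libraries averaged 656 CPM for Amelx, 80.6 for Ambn, 7.93 for Enam, 7.19 for Fam20a and 3.91 for Mmp20.

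**Figure D4:**
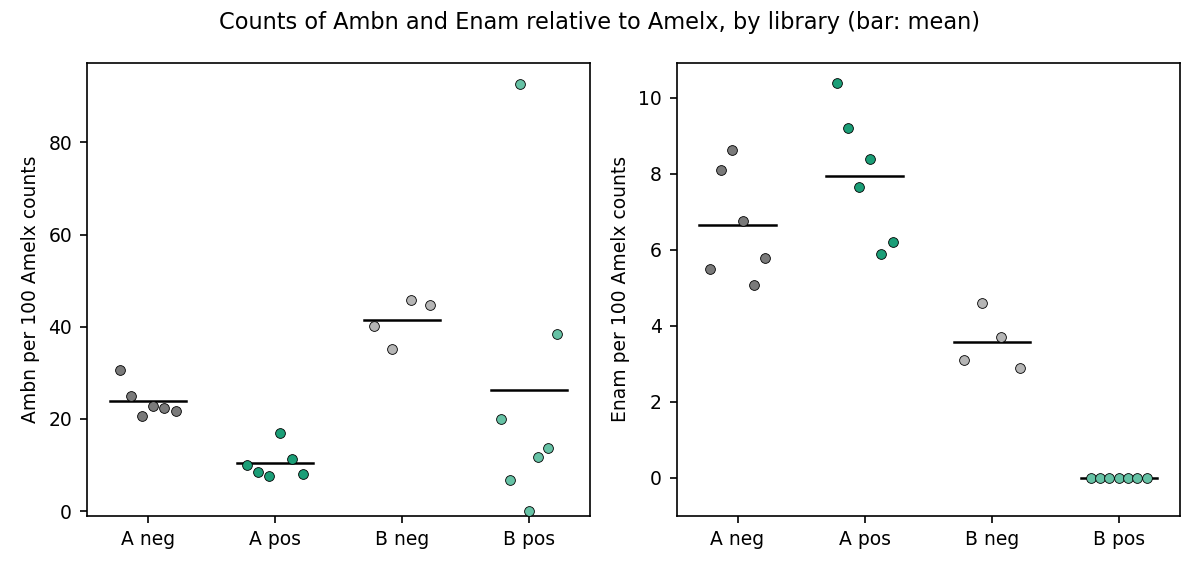
Ambn (left) and Enam (right) counts per 100 Amelx counts in each library (points) with the group mean (bar), for Sox2-Negative (neg) and Sox2-Positive (pos) cells of batches A and B; batch B Sox2-Positive ratios rest on 13 to 60 Amelx counts per library. Ambn lies lowest relative to Amelx in batch A Sox2-Positive and highest in batch B Sox2-Negative libraries apart from single batch B Sox2-Positive libraries. Enam is lower in batch B Sox2-Negative than in batch A libraries and has 0 counts in batch B Sox2-Positive libraries.

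The 4 secretory stage members varied together over the 23 libraries. Pearson's r of log2 CPM with Amelx was 0.986 for Enam, 0.944 for Ambn, 0.901 for Mmp20, 0.642 for Fam20a, -0.618 for Fam83h and -0.660 for Odam, as a description over libraries that fall into 4 separate groups and share depth and batch. Among 11087 genes with a mean of at least 10 CPM and outside the members, the 5 with the highest r were Postn (0.985), Col3a1 (0.973), Timp3 (0.972), Heg1 (0.966) and Nrp1 (0.965). Postn and Col3a1 encode a matricellular protein and a collagen typical of mesenchymal tissue, and Nrp1 a receptor of endothelial and neural cells. Postn averaged 480.3 and 180.1 CPM in batch A Sox2-Negative and Sox2-Positive cells and 467 and 15.9 CPM in those of batch B. The mesenchymal markers, 6 of 7 with counts and Twist1 at 0 in both groups, differed among themselves between the Sox2-Positive groups of the batches. They summed to 1222, 1359.7 and 1772 CPM (lowest, median, highest) in batch A and 597, 639 and 677 CPM in batch B. Col1a1 (424 to 36.1 CPM), Col3a1 (387 to 7.01 CPM) and Prrx1 (2.10 to 0.376 CPM) were called lower in batch B by edgeR, while Col1a2 (565 and 546 CPM), Pdgfra (29.3 and 42.3 CPM) and Pdgfrb (11.4 and 10.2 CPM) were not called (adjusted p = 0.792, 0.0883 and 0.780). Glial markers, 5 of 5 with counts, had sums of 699, 776 and 893 CPM in the Sox2-Positive libraries of batch A, against 28.0, 32.8 and 54.1 CPM in batch B. Leukocyte (4 genes), endothelial (4) and erythroid markers (5) were near 0 in both, at most 14.5, 5.54 and 11.6 CPM in sum. The part of these other transcripts in the levels of the enamel genes was not tested. In Sox2-Negative cells erythroid markers summed to 982 to 1167 CPM in batch A and 53603 to 62029 CPM in batch B, and with those genes removed no member's call or direction changed.

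**Figure D5:**
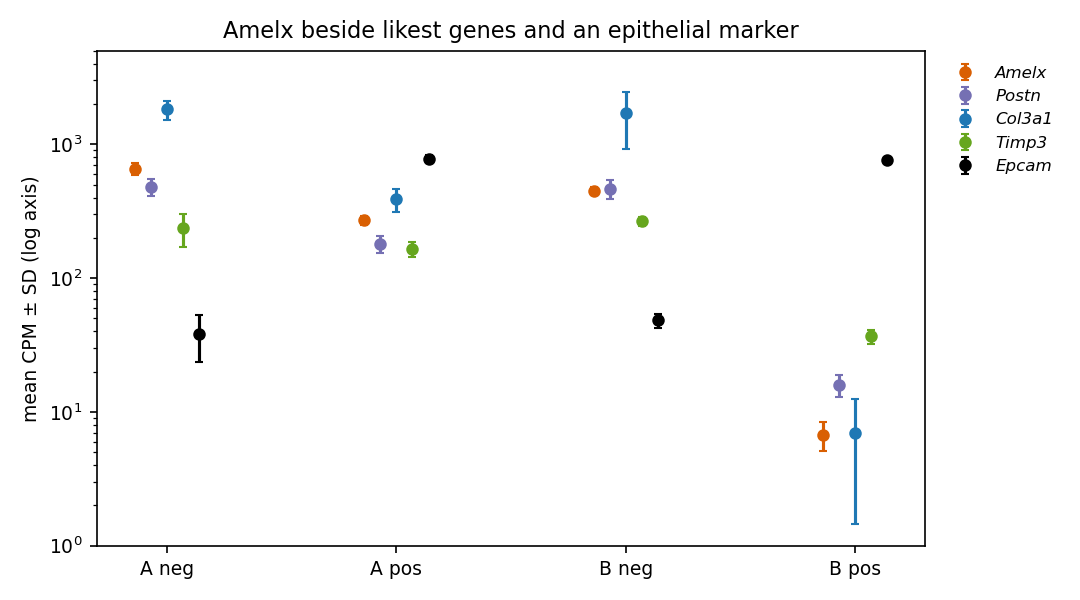
Mean CPM (points, log axis) with SD (bars) of Amelx, of the 3 genes most like it, and of the epithelial marker Epcam, in Sox2-Negative (neg) and Sox2-Positive (pos) cells of batches A and B. Amelx, Postn, Col3a1 and Timp3 are lower in batch B than in batch A Sox2-Positive cells, whereas Epcam is at 779 and 766 CPM. Epcam is 1 of 7 epithelial markers. Of these, 1 was called higher in batch B Sox2-Positive cells and 6 were not called, with a median log2 fold change of 0.49.

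Other genes of enamel formation went in both directions. Of 21 further genes known from enamel disease, 17 were tested over both batches: 8 were higher in Sox2-Positive cells, 2 lower and 7 not called, with a median log2 fold change of 0.50 (24.9% and 32.5% of all genes were called higher and lower). Lama3, a laminin chain of the epithelial basement membrane, rose by 4.06 ± 0.58 (SE) on the log2 scale, with 35.9 and 107 CPM in batch A and B Sox2-Positive cells. Cldn19, a tight junction protein that also occurs in Schwann cells, was called higher by 4.72 ± 1.18, but it held 32.1 ± 16.3 CPM in batch A Sox2-Positive cells, where the glial markers were high, and 0.0858 CPM in those of batch B. Dlx3, a homeobox factor, fell by 1.09 over both batches and was called lower in each alone (-0.66 in batch A and -1.50 in batch B). Its interaction was -0.91 (edgeR adjusted p = 0.00640). Stim1, a calcium sensor, fell by 0.38 over both batches. It was not called in batch A alone (-0.55, edgeR adjusted p = 0.0669) or in batch B alone (-0.11, edgeR adjusted p = 0.621). Of 8 genes of ameloblast ion transport 7 were tested, 3 higher and 4 lower, with a median of -1.08. The phosphate transporter Slc34a2 (5.01) and the bicarbonate transporter Slc4a4 (1.39) were higher, and the carbonic anhydrase Car2 (-3.09) and the chloride channel Cftr (-2.52) lower. Slc34a2 averaged only 1.38 and 3.22 CPM in Sox2-Positive cells of batch A and B and was not tested in batch A alone. Slc4a4 was not called in batch A alone (0.92, edgeR adjusted p = 0.275). Cftr, at group means of 0.283 to 4.52 CPM, was tested in neither batch alone. Car2 was called lower in each batch alone (-2.85 and -3.27).

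The transcription factors of the dental epithelium differed in direction, some between batches. All 14 were tested, and over both batches 8 were higher, 3 lower and 3 not called, with a median of 1.02, where the shares over all genes were 24.9% higher and 32.5% lower. Within batch A 9 were higher, 2 lower and 3 not called, and in batch B 9 were higher and 5 lower. Sp6, a zinc finger factor of ameloblast differentiation, was called higher in batch A (1.71) and lower in batch B (-0.70), with an interaction of -2.48 ± 0.21 SE (edgeR adjusted p = 1.35e-08). Satb1, a chromatin organizer, was likewise called higher in batch A (0.39) and lower in batch B (-1.13), with an interaction of -1.59 ± 0.18 SE (edgeR adjusted p = 1.70e-06). Isl1, a homeobox factor, averaged 242 ± 29.5 CPM in Sox2-Positive cells of batch A against 10.1 CPM in Sox2-Negative cells, and 314 ± 35.9 against 17.6 CPM in batch B (log2 fold change 4.38 ± 0.20 SE). Dlx3 was lower (-1.09) and Trps1, a zinc finger repressor, lower (-1.38). The dentin and bone relatives of the matrix genes, with 6 of 7 lower and 1 higher over both batches, had a median of -6.77. In batch A 5 were lower, 1 higher and 1 not called, and in batch B 5 of 6 tested were lower and 1 higher. Dmp1, made by osteocytes and odontoblasts, averaged 104 ± 50.7 and 59.7 ± 5.51 CPM in Sox2-Negative cells of batch A and B and had 0 and 2 counts in all in the Sox2-Positive groups. Mepe, another gene of the phosphoprotein family, averaged 75.4 CPM in Sox2-Negative cells of batch A but 0.686 CPM in those of batch B, and had 0 counts in both Sox2-Positive groups. Sparcl1, an extracellular SPARC relative, rose by 2.12 over both batches, but the size depended on the batch. It rose by 0.79 in batch A and 4.17 in batch B, with an interaction of 3.31 ± 0.17 SE (edgeR adjusted p = 1.05e-13). Of 4 genes of the stratum intermedium, the layer that underlies ameloblasts, Thbd (-5.39) and Alpl (-2.52) were lower over both batches, and Hes1 and Notch1 were not called. Notch1 was called higher in batch B alone (0.99, edgeR adjusted p = 0.000161) and not in batch A (-0.57, adjusted p = 0.107), with an interaction of 1.49 (adjusted p = 0.00666).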

How the data were processed

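The authors deposited estimated counts per gene for each of the 23 libraries, made with FastQC, Trimmomatic and Salmon on the build mm10, per the submitters' processing notes. The tools' versions, settings, the annotation and the step from transcripts to genes are not given in the sources used here. Nearly no value was whole, so the authors' estimates were rounded to whole counts. GENCODE M21 gave a symbol to 54094 IDs (99.5%). The estimates assign reads by transcript and their strand setting is not given; 31-base words shared with other genes made up 0.294% of Wdr72, 0.0307% of Mmp20 and none of the other members.

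Counts were scaled by TMM and tested with edgeR 4.0.16 (quasi-likelihood, R 4.3.3, filterByExpr with a minimum count of 10, Benjamini-Hochberg adjusted p below 0.05) in each batch, with batch as a term over both, and in a model of the 4 groups for the interaction and the batch contrasts. DESeq2 1.42.0 and limma-voom (limma 3.58.1) were alternatives. Standard errors are the log2 fold change divided by the root of F. The fits were tried on simulated counts, whose changes were smaller than those of the matrix genes in batch B. That trial does not bear on changes of such a size. Intervals and floors cover counting error only. The members and lists were chosen with earlier results of these data known. Named genes outside the members were up to 2 with the highest and 2 with the lowest fold change among those called in each list, and the 5 most like Amelx (log2 CPM with a prior count of 2); Hes1, Notch1, Sp6, Satb1 and the single mesenchymal markers were named after their values were seen, and the host and neighbour genes for completeness. A gene that this rule would name is not reported here.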

Additional observations from a re-analysis of the deposited data

Results flagged for a closer look

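Of 32 groups of 4 to 7 libraries with a level above 0, 7 had a library set far apart from the rest of its group by Dixon's test. The nominal rate of that test, about 1 in 20, holds for normally distributed values and not for counts near 0. A group with counts in a single library is always set apart, as for Wdr72 and Mmp20 and for Klk4 in batch B below. The number of such groups is therefore not compared with chance. In batch A these were Ambn in Sox2-Positive replicate 4 (44.8 CPM), Fam20a in the same library (10.9 CPM), Wdr72 in Sox2-Positive replicate 2 (0.179 CPM, from 1 count), Fam83h in Sox2-Negative replicate 5 (16.4 CPM) and Klk4 in Sox2-Negative replicate 1 (2.84 CPM, from 11 counts). In batch B they were Klk4 in Sox2-Positive replicate 3 (1.53 CPM, from 10 counts) and Mmp20 in Sox2-Positive replicate 4 (0.485 CPM, from 2 counts).

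The difference between Sox2-Positive and Sox2-Negative cells differed between the batches, by the interaction test of edgeR, for Amelx (-4.75 on the log2 scale, batch B minus batch A), Ambn (-4.47), Enam (-8.32, a fitted value against a group at 0 and no bound) and Mmp20 (-4.66).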

How the results depend on the processing

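Over 1195 values of the members' log2 fold changes (41 results under the alternatives), 1161 kept direction and side of the threshold, 26 lost and 2 gained a call, and 6 changed direction. Under 3 other scalings (RLE, total counts, TMM with erythroid genes removed), 123 of 123 kept both; total-count scaling moved the median of all genes by 0.12 over both batches and by -0.15 between batches in Sox2-Negative cells, where the share of calls that were higher went from 52.2% to 32.3%, and from 46.7% to 35.4% in Sox2-Positive cells.

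The labels do not say whether replicate numbers pair the libraries, and a low correlation cannot show that they do not. The correlation of same-numbered deviations from the group mean was -0.0418 to 0.00618 in batch A (6 pairs, 0 best with their own number). In batch B it was 0.00609 to 0.0773 (4 pairs, 1 best), highest for numbers 1 and 2 (0.0773 and 0.0686). With the replicate block the interaction called 557 genes in place of 1210, the Odam call over both batches was lost (2.72, adjusted p = 0.0544), as was the Mmp20 interaction (-4.61, adjusted p = 0.122), and the uncalled Fam83h interaction was -0.05. Batch B Sox2-Positive replicates 5, 6 and 7 have no Sox2-Negative library of the same number. In the block fit they therefore add nothing to the population difference, so that fit rests on fewer libraries. No paired analysis was possible for the batch contrasts because numbers are nested in batches.

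Without the batch B libraries numbered 1 and 2, the interaction called 481 genes, the batch contrast 754 in place of 1924 in Sox2-Negative (members 0 in place of 3) and 1159 in place of 1785 in Sox2-Positive cells. Batch B then held 2 Sox2-Negative and 5 Sox2-Positive libraries, and smaller groups also give fewer calls. In Sox2-Negative cells the batch difference was -0.47 in place of -0.55 for Amelx and -1.47 in place of -1.45 for Enam. For Odam it was 6.07 in place of 6.82, both fitted against a group at 0. With all libraries, limma-voom called 3313 genes between batches in Sox2-Positive cells, with Odam among them (2.95, limma-voom adjusted p = 0.0184). Fam83h changed direction with limma-voom in the interaction (-0.17) and between batches in Sox2-Negative cells (0.47). Leaving out 1 library at a time gave -0.35 to 1.57 and -1.34 to 0.57 for these, and -1.68 to 0.13 for Fam20a between batches in Sox2-Positive cells. The cause was not tested. Klk4 and Amtn in all groups, and Wdr72 in all but batch B Sox2-Negative cells (0.525 CPM, floor 0.451), had means below the mean floor of 3 counts per library.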
